A study of Mus musculus with 6 samples.

Results

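Membrane transporters, pumps and ion channels were compared between wild-type (WT) and Themis-deficient OT-I cells, CD8 T cells from a T cell receptor transgenic mouse line that recognises an ovalbumin peptide. The genes were chosen by symbol: solute carriers (Slc, Slco), ATP-binding cassette transporters (Abc), ATP-driven pumps (Atp), potassium, calcium, sodium, chloride and TRP channels, and ATP-gated P2X receptors. The glucose and lactate carriers Slc2a1, Slc2a3 and Slc16a3 were left out by the same rule. It gave 26 genes out of 854 in the deposited table.

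The cells, naive when isolated from spleen and lymph nodes, were WT or had a conditional knockout (cKO) of Themis, which encodes a signalling protein of T cells. Each genotype spent 3 days in culture with 1 µg/ml IL-2, after which RNA was sequenced in 3 libraries per genotype. Themis itself had 5526, 5780 and 4963 scaled counts (read counts after a small correction between libraries of a genotype) in the WT libraries and 977, 1226 and 1216 in the cKO libraries, lower in each library labelled cKO though not at 0. The labels give neither the Cre driver of the knockout nor whether libraries of a genotype came from separate mice, so the p-values cover only library-to-library spread, which may be technical. None of 9 CD8 T cell markers listed (Cd8a, Cd3e and others) was in the table, so the labelled cell type could not be checked against them.

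A lymphocyte's surface transporters set how fast it can take up amino acids, sugars and metal ions, and T cells raise many of them when they are activated. The heavy chain encoded by Slc3a2 (CD98) carries several amino acid exchangers of the Slc7 family to the plasma membrane. Ion channels and the sodium-potassium pump set the membrane potential, which in T cells drives calcium entry. Transcription of several amino acid transporter genes is known to be raised by ATF4, a factor of the amino acid and integrated stress responses, which binds a short promoter motif called the CARE (C/EBP-ATF response element) or amino acid response element.

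Most of the genes with enough reads were lower in the cKO libraries. Of the 26, 22 had enough counts to test, and 16 were lower and 6 higher in cKO. The lower genes included the amino acid transporters Slc6a9, Slc7a3, Slc7a11 and Slc1a4, the copper pump Atp7b and the peptide transporter Slc15a3. The higher genes were the amino acid transporter Slc6a19, the monocarboxylate carrier family gene Slc16a5, the sodium pump subunit Atp1b1, the potassium channel Kcna2 and the calcium channel subunits Cacnb1 and Cacna2d4. All 22 passed an adjusted p of 0.05 (edgeR quasi-likelihood test, Benjamini-Hochberg over 794 genes; highest adjusted p = 0.000814), and in all 22 the 3 libraries of one genotype lay wholly above the 3 of the other. These counts are close to those of the whole table. Of the 794 genes tested, 100% passed, 75.8% were lower and 24.2% higher, and the genotypes did not overlap for 99.5%. The median log2 fold change was -1.40 over the 22 genes and -1.34 over all genes tested. The log2 ratio of mean counts falls between -0.94 and 1.06 for no gene of the table. It thus lists genes with large differences, and passing the test is not independent evidence. Depths over all genes are not used here; the table's counts sum to 946766 to 1054442 in WT and 424605 to 437437 in cKO, and both genotypes were taken at equal depth. With scalings that instead centre the table on itself the median log2 fold change moved up by 1.30 to 1.31. Under either, 7 of the 22 genes were called higher, 6 were called lower and 9 were not called. Of the 22, 4 turned sign.

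Genes listed as markers of other cell types also differed between the genotypes, in both directions. Which cells expressed them cannot be told from these libraries. Of 10 NK cell markers, the table held 7, each higher in cKO, with summed scaled counts of 568 to 881 in WT and 1450 to 2590 in cKO libraries. The B cell genes Cd79b and Ms4a1 were also higher in cKO. Cd79b had 41.3, 39.3 and 45.1 scaled counts in the WT libraries and 67.5, 113 and 142 in the cKO libraries (edgeR, adjusted p = 0.000933). Ms4a1 had 19.1, 9.83 and 27.8 against 16.1, 59.0 and 87.9, so the genotypes overlapped, and its call (edgeR, adjusted p = 0.0247) ended without WT replicate 1 or 2 or cKO replicate 2 or 3 (0.0529 to 0.122). Among 13 markers of myeloid cells, the table held Mpeg1, which was lower in cKO, and Itgax, which was higher. Of 10 stromal and endothelial markers Kdr was lower and Madcam1 too low to test, and of 6 erythroid markers the 2 in the table were also too low. Their part in the transporter results was not tested. In bulk RNA, fewer cells of a type and less RNA per cell cannot be told apart.

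The promoter sequences that bear on the amino acid group are shown first, because 4 of its members were lower under each scaling. Of these, 2 hold a motif also found in ATF4 target genes of the table. Any part of ATF4 in these results was not tested. The CARE core was searched as TGATGNAA on both strands (TTNCATCA on the other) in RefSeq promoter windows of GRCm38.p6, from 250 bases before to 50 after each start site. It occurs in 3.97% of 32851 windows. Of 19 transporter and channel genes with a window, 3 held it: Slc7a11, Slc1a4 and Kcnab1. A gene with several start sites has several windows, so a share of genes cannot be set directly against a share of windows. In the sequences, read 5′ to 3′ on the gene's strand, the capitals mark the match. Slc1a4 and Slc7a11 are the amino acid transporters with a match, and Chac1 and Atf3 are ATF4 targets named below, shown for comparison; Slc7a11 was added to the genes shown after its values were seen.
Slc7a11: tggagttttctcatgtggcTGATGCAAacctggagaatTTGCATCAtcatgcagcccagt
Slc1a4: agcctccagcgtgcctcctgcgTTGCATCA
Chac1: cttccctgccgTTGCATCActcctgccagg
Atf3: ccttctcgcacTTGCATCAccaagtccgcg

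The Slc7a11 stretch lies at chr3:50443639-50443698 on the minus strand and holds 2 copies in opposite orientation, 11 bases apart, starting at positions -66 and -47 from the start site. The Slc1a4 stretch lies at chr11:20332710-20332739 on the minus strand, and its single copy starts at position -4 and ends 4 bases past the start site. The Chac1 copy starts at position -193 (chr2:119351038-119351067, plus strand) and the Atf3 copy at -110 (chr1:191183425-191183454, minus strand). The same 8 letters, TTGCATCA, stand in all of these genes. The windows of the amino acid transporter genes Slc3a2, Slc6a9 and Slc6a19 hold no match, which says only that these letters are not in these windows. A match is a description and not evidence of binding.

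**Figure D1:**
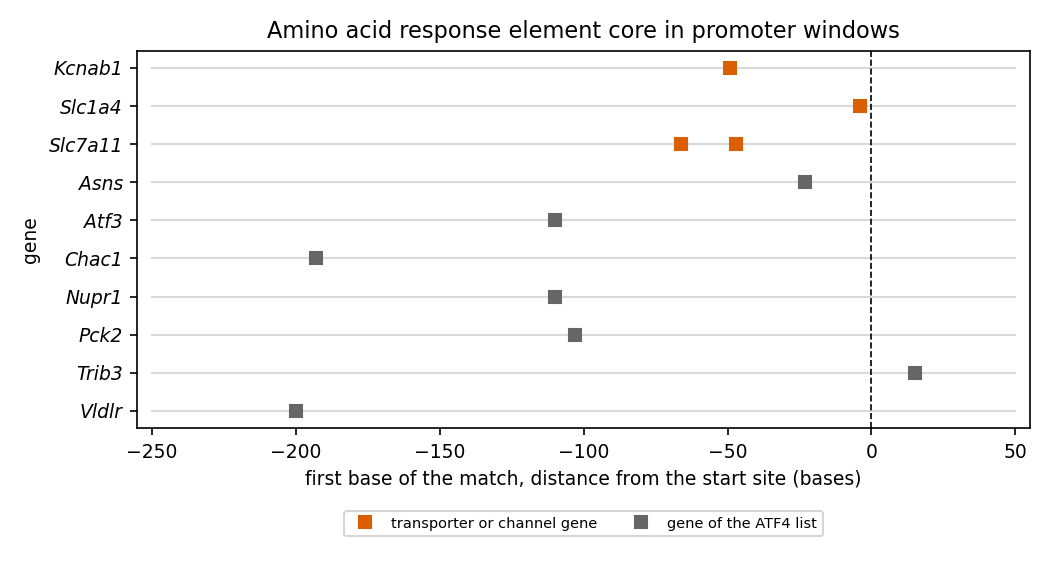
Position of the first base of each CARE core match relative to the RefSeq start site (dashed line, in bases) for transporter and channel genes (orange) and genes of the ATF4 list (grey) that hold one. Grey lines span the window searched, from 250 bases before to 50 after the start; Slc7a11 has matches at -66 and -47, and all matches but that of Trib3 start before the start site.

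Amino acid transporters made up the largest role group. Of 6 tested, 5 were lower in cKO and 1, Slc6a19, was higher, where 75.8% of all genes tested were lower. The median log2 fold change of the 6 was -2.08, against -1.34 over all genes tested. Slc3a2 turned sign under the table-centred scalings; Slc6a9, Slc7a3, Slc1a4 and Slc7a11 stayed lower and were still called there.

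Slc3a2 (chromosome 19, 8706882 to 8723369), the CD98 heavy chain, was the most abundant of the 26 genes. It had 10545, 9785 and 11530 scaled counts in WT replicates 1 to 3 and 6087, 5387 and 5016 in cKO replicates 1 to 3. All cKO libraries lay below all WT libraries. At equal depth cKO over WT was -0.95 ± 0.09 on the log2 scale (± standard error for every fold change, edgeR adjusted p = 5.09e-06). Under the table-centred scalings it became 0.35 to 0.36 and was called higher (edgeR, adjusted p of 0.00516 to 0.00573). Its direction in these fits thus depends on the scaling, and the table-centred scalings take the bulk of the listed genes as unchanged. The authors' deposited table gives -0.75 with a q-value of 0.00585. Slc3a2 made up 62.7% ± 1.75 of the scaled counts of all 26 genes in WT and 50.9% ± 3.23 in cKO (SD, n = 3 each).

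Slc6a9 (chromosome 4, 117835258 to 117869305) encodes a glycine transporter. Its libraries held 732, 737 and 948 scaled counts in WT and 157, 94.4 and 119 in cKO. The highest cKO library was thus far below the lowest WT library. The log2 fold change of -2.70 ± 0.20 (standard error) was the lowest of the amino acid group (edgeR, adjusted p = 9.39e-07).

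Slc7a3 (chromosome X, 101079146 to 101090452), a carrier of cationic amino acids such as arginine and lysine, had 288, 295 and 388 scaled counts in WT and 70.5, 28.5 and 53.5 in cKO. WT replicate 3 was the highest for this gene, for Slc6a9 and for Slc3a2. The cKO libraries were uneven, with replicate 2 lowest, but none approached WT. The cKO over WT ratio gave a log2 fold change of -2.67 ± 0.28 (edgeR, adjusted p = 9.96e-06).

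Slc1a4 (chromosome 11, 20302180 to 20332713), a transporter of alanine, serine, cysteine and threonine, had 629, 581 and 655 scaled counts in WT and 163, 159 and 135 in cKO. Both genotypes were tight and far apart. Its log2 fold change was -2.02 ± 0.14 (edgeR, adjusted p = 4.12e-07).

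Slc7a11 (chromosome 3, 50364936 to 50499087), the xCT light chain that pairs with the Slc3a2 heavy chain to import cystine in exchange for glutamate, was a low-count gene. It had 43.2, 32.9 and 52.5 scaled counts in WT and 10.5, 11.1 and 8.11 in cKO, with no overlap. The fitted log2 fold change was -2.14 ± 0.31 (edgeR, adjusted p = 0.000104). The authors' deposited table gives -1.38 with a q-value of 0.120, which misses 0.05.

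Slc6a19 (chromosome 13, 73679745 to 73700780) went the other way. It encodes a sodium-coupled transporter of neutral amino acids best known from the brush border of intestine and kidney. The libraries held 151, 275 and 175 scaled counts in WT and 1031, 740 and 1106 in cKO. WT replicate 2 was the highest WT library and cKO replicate 2 the lowest cKO library, and the genotypes still stood wide apart. At a log2 fold change of 2.26 ± 0.24 (edgeR, adjusted p = 1.10e-05) it was the highest of the 22 tested genes, and the authors' deposited table gives 1.64 with a q-value of 0.00308. The rule also picked up Slc6a19os, which RefSeq lists as a long noncoding RNA from the opposite strand and which is no transporter. It overlaps Slc6a19 by 826 bases, had 2 counts over the WT libraries and 34 over the cKO libraries (ratio 17, 95% exact Clopper-Pearson interval of counting error 4.36 to 146), and was too low to test. Whether the counting used strand is not stated, so reads of the pair cannot be told apart where they overlap.

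Other genes linked to ATF4 were lower as well. Of 26 genes on a list of the ATF4 programme and amino acid response, 15 were in the table and every one had a lower level in cKO at equal depth (median log2 fold change -2.08; 75.8% of all genes tested were lower). With either table-centred scaling 10 of the 15 were still called lower, while Atf5 and Cebpg turned sign with both and Stc2 and Trib3 with TMM alone. Over all genes tested, 214 of 796 were called lower with TMM and 211 of 786 with DESeq2 size factors. The list was drawn up with earlier results of these data known. Atf3, a stress-induced transcription factor, had 1102, 1109 and 1202 scaled counts in WT and 16.1, 24.6 and 17.2 in cKO. Chac1, which degrades glutathione, had 262, 230 and 296 against 43.3, 40.3 and 24.2. The growth-inhibiting regulators Ddit4 and Sesn2 had log2 fold changes of -2.01 and -1.69 (edgeR; adjusted p of at most 0.000462 over the 15). Of the 13 with a promoter window, 7 held the CARE core in any of their windows. The share of 3.97% given above counts single windows, so the shares are not on the same footing. The list collects known ATF4 targets, so its share is a property of the list.

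Sugar and monocarboxylate carriers were split. Slc2a6 (chromosome 2, 27021363 to 27028000), an intracellular member of the glucose transporter family, had 164, 194 and 191 scaled counts in WT and 53.4, 70.8 and 48.5 in cKO. Every cKO library was under the lowest WT library by more than the spread of either genotype. On the log2 scale the fold change was -1.67 ± 0.19 (edgeR, adjusted p = 1.88e-05). With the table-centred scalings it was -0.37 to -0.36 and no longer called.

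Slc37a4 (chromosome 9, 44396946 to 44402966), which moves glucose-6-phosphate into the endoplasmic reticulum, had 797, 709 and 787 scaled counts in WT and 380, 328 and 356 in cKO. The genotypes did not overlap. This gave a log2 fold change of -1.11 ± 0.12 (edgeR, adjusted p = 1.39e-05), and it became 0.19 to 0.20 under the table-centred scalings. Slc45a3, a low-count member of this group, had 13 counts over the WT libraries and 0 in cKO, which is at least 4.33-fold lower when 3 counts summed over the group are taken as the floor.

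Slc16a5 (chromosome 11, 115462405 to 115474398), of the monocarboxylate transporter family, was higher in cKO. The libraries held 201, 195 and 165 scaled counts in WT and 608, 603 and 601 in cKO. The cKO libraries were nearly equal. The cKO over WT ratio gave a log2 fold change of 1.69 ± 0.13 (edgeR, adjusted p = 1.19e-06), while the authors' deposited table gives 0.94 with a q-value of 0.176.

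Among other solute carriers all 4 tested genes were lower, as were 75.8% of all genes tested. Slc15a3 (chromosome 19, 10842544 to 10857915), a peptide and histidine transporter of endolysosomes, had 85.9, 99.3 and 123 scaled counts in WT and 15.1, 21.6 and 22.2 in cKO, with no overlap. Its log2 fold change was -2.38 ± 0.25 (edgeR, adjusted p = 1.02e-05), and the gene stayed lower and called under the table-centred scalings. It lies 12.5 kb from Cd6, a surface receptor that tunes T cell receptor signalling, which was also lower (log2 fold change -1.71).

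The other 3 were low-count genes. Slc41a2, a magnesium transporter, averaged 86.5 ± 16.8 scaled counts in WT and 32.1 ± 6.66 in cKO. Slc4a11, a bicarbonate transporter family protein, had 34.5 ± 6.79 and 8.35 ± 2.18 (SD, n = 3 each). Slc22a29, of the organic anion transporter family, had 46 ± 6.54 and 17.5 ± 4.18. The calls of all 3 ended under the table-centred scalings. The Slc22a29 transcript is 96.8% identical to that of Slc22a27 over 2088 bases, so its reads cannot be assigned with certainty. Slco1a6, an organic anion transporter, gave 18 counts over WT and 1 over cKO, a ratio of 18 with an exact interval of 2.84 to 750.0; its transcript is 86.3% identical to that of Slco1a5 over 2142 bases.

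The single ABC transporter was lower in cKO at equal depth and turned sign, to 0.27 to 0.28, under the table-centred scalings. Abcg1 (chromosome 17, 31057694 to 31117984) exports cholesterol. It had 1743, 1861 and 1904 scaled counts in WT and 752, 1025 and 914 in cKO. No cKO library reached a WT library. The fitted log2 fold change was -1.03 ± 0.12 (edgeR, adjusted p = 2.73e-05).

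The pump genes went opposite ways. Atp7b (chromosome 8, 21992783 to 22060074), a copper-transporting ATPase given per library after its values were seen, had 93.3, 91.4 and 74.0 scaled counts in WT and 10.1, 2.95 and 5.07 in cKO. All cKO libraries stood at 10.1 or below. The log2 fold change of -3.81 ± 0.35 was the lowest of the 22 genes (edgeR, adjusted p = 4.41e-06; -4.39 to -3.50 when any one library was left out), and it stayed lower and called under the table-centred scalings. The authors' deposited table gives -3.72 with a q-value of 1.69e-09.

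Atp1b1 (chromosome 1, 164437099 to 164458355), the beta subunit of the sodium-potassium pump, was higher in cKO. The libraries held 648, 681 and 507 scaled counts in WT and 1447, 1242 and 1570 in cKO. The lowest cKO library was well above the highest WT library. On the log2 scale the fold change was 1.21 ± 0.14 (edgeR, adjusted p = 2.37e-05). The authors' deposited table gives 0.46 with a q-value of 0.630.

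**Figure D2:**
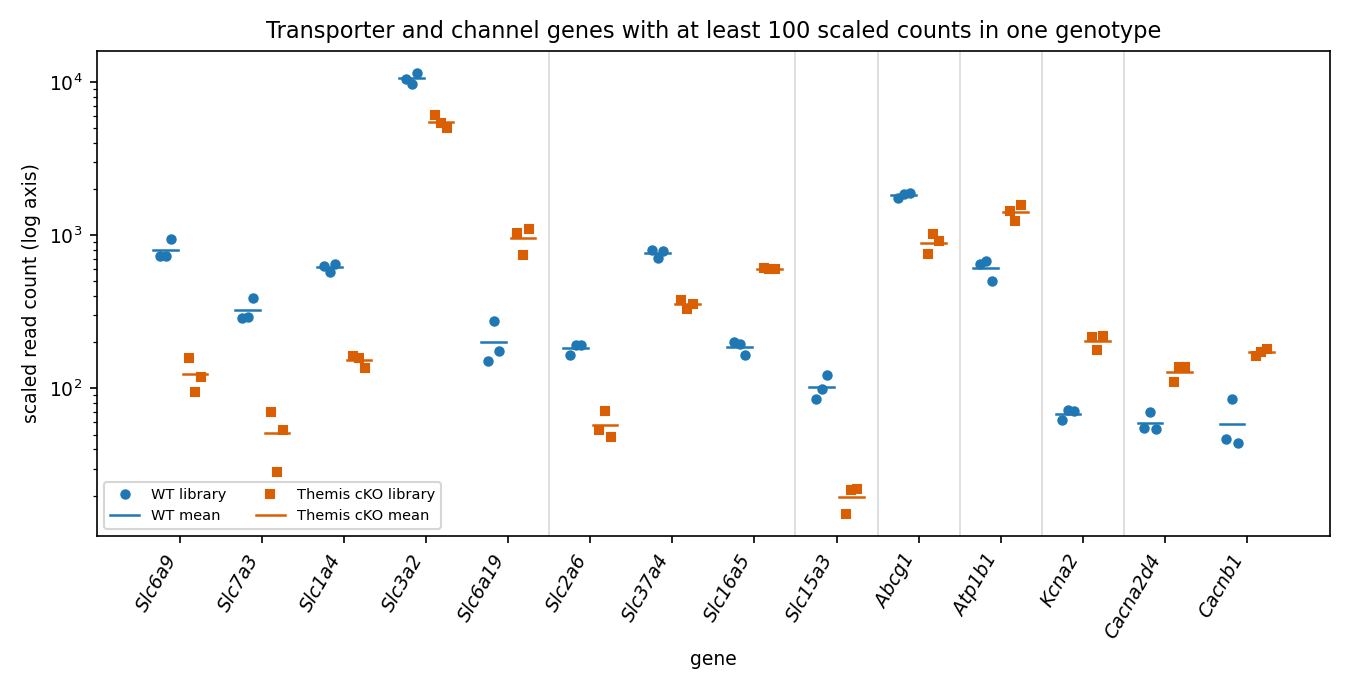
Scaled read count (log axis) of the 14 genes with a mean of at least 100 in one genotype, for each WT library (blue circles) and Themis cKO library (orange squares), with lines at the means (n = 3 each) and vertical lines between roles. In each gene the genotypes stand apart; Slc6a19, Slc16a5, Atp1b1, Kcna2, Cacna2d4 and Cacnb1 are higher in cKO at equal depth, and the lower genes Slc3a2, Slc37a4 and Abcg1 turned sign under the table-centred scalings.

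Ion channel genes were also split, with the pore-forming and auxiliary subunits going both ways. Kcna2 (chromosome 3, 107090883 to 107115005), a voltage-gated potassium channel of the Shaker family, had 62.5, 71.9 and 71.0 scaled counts in WT and 218, 178 and 220 in cKO. All cKO libraries exceeded all WT libraries. This gave a log2 fold change of 1.58 ± 0.17 (edgeR, adjusted p = 1.02e-05).

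Both calcium channel genes in the table encode auxiliary subunits, and both were higher in cKO. Cacnb1 (chromosome 11, 98001508 to 98023034), a beta subunit, had 46.7, 85.5 and 44.1 scaled counts in WT and 164, 172 and 181 in cKO. WT replicate 2 stood above the other WT libraries and still far under cKO. The cKO over WT ratio gave a log2 fold change of 1.55 ± 0.25 (edgeR, adjusted p = 0.000192; 1.37 to 1.93 when any one library was left out). Cacna2d4 (chromosome 6, 119236524 to 119352407), an alpha2delta subunit, had 55.1, 69.8 and 54.7 in WT and 110, 139 and 138 in cKO. Its log2 fold change was 1.10 ± 0.19 (edgeR, adjusted p = 0.000324). The pore-forming genes of calcium channels are not in the table and were not analysed here.

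The remaining channel genes were lower in cKO at equal depth, all from few counts. Kcnj1, an inwardly rectifying potassium channel, averaged 42.2 ± 6.02 scaled counts in WT and 9.63 ± 3.89 in cKO. Kcnk7, of the tandem-pore potassium channel family, had 88.2 ± 13.8 and 39.7 ± 6.51, and turned sign (0.14 to 0.16) under the table-centred scalings. P2rx3, an ATP-gated cation channel, had 37.6 ± 12.4 and 8.95 ± 1.87 (SD, n = 3 each). The calls of Kcnj1 and P2rx3 ended under those scalings. Kcnab1, an auxiliary subunit of voltage-gated potassium channels, had 18 counts over the WT libraries and 0 in cKO, at least 6-fold lower against the floor of 3 counts.

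Cacnb1 stood among other genes that were higher. Within 50 kb on chromosome 11 lie Plxdc1 (97923237 to 97986669), Arl5c (97989575 to 97996285) and Stac2 (98036623 to 98053462), all in the table and all higher in cKO under each scaling. Arl5c, a small GTPase-like protein, had 279, 357 and 234 scaled counts in WT and 1238, 1089 and 1259 in cKO, a log2 fold change of 2.04 ± 0.16. Stac2, of a family of adaptors that bind voltage-gated calcium channels, had 43.5, 47.2 and 34.6 against 107, 121 and 159, a log2 fold change of 1.62 ± 0.22. Plxdc1, a plexin-domain protein, had 75.3, 90.4 and 50.9 against 141, 172 and 153, with 1.11 ± 0.22. The authors' deposited q-value was under 0.05 only for Plxdc1 (0.0333). It was 0.110 for Arl5c, 0.348 for Cacnb1 and 0.492 for Stac2. In all 4 genes, Cacnb1 included, WT replicate 2 was the highest WT library. Of 842 table genes with a RefSeq position, 2.97% have 3 or more table genes within 50 kb, and 23.8% have at least 1; of the 26 transporter and channel genes, 4 have at least 1, 2 of them being Slc6a19 and its antisense RNA.

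**Figure D3:**
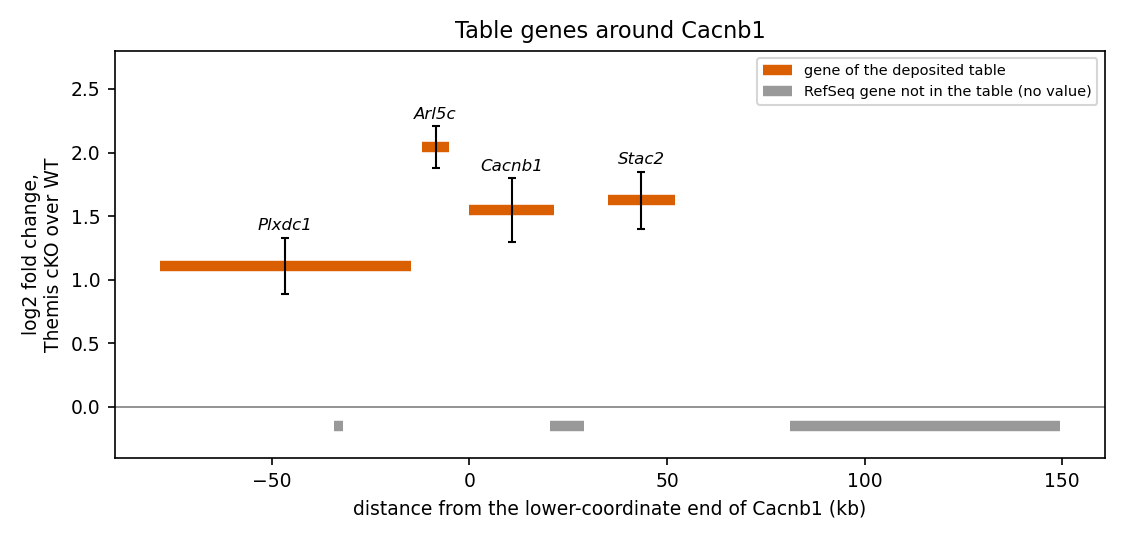
Log2 cKO/WT fold change with its standard error (edgeR) for table genes within 100 kb of Cacnb1, drawn as orange bars over their extent in kb from the lower-coordinate end of Cacnb1; grey bars below 0 mark RefSeq genes that are not in the table and have no value. Plxdc1, Arl5c, Cacnb1 and Stac2 stand between 1.11 and 2.04; Rpl19, which is not in the table, lies between Cacnb1 and Stac2.

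Some of these values could include reads of an overlapping gene, since the strand setting is not given. By RefSeq, 9 of the 26 genes overlap another protein-coding gene. Cacnb1 overlaps the ribosomal protein gene Rpl19 by 1032 bases, Slc7a3 overlaps Snx12 by 1086, Cacna2d4 overlaps Lrtm2 by 17138 and Atp1b1 overlaps Nme7 by 202. Kcnk7 overlaps Ehbp1l1 by 616 bases, and Kcnj1 lies wholly within a long noncoding RNA gene. The share of reads concerned was not tested.

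Channels and carriers whose symbols fall outside the rule were few. Clic4, Clic5 and Mcub were the only ones found there, each lower in cKO at equal depth; under the table-centred scalings none was called and Mcub turned sign (edgeR, 0 called and 1 at an unadjusted p under 0.05 with TMM; 3 called with DESeq2 at equal depth). Over all genes tested, 75.8% were lower at equal depth. Clic4, a chloride intracellular channel protein, had 10020, 9451 and 10070 scaled counts in WT and 4035, 3626 and 3877 in cKO, a log2 fold change of -1.36 ± 0.07. Clic5, its paralog, had 56.1 ± 3.34 and 14.7 ± 3.91. Mcub, a subunit that dampens the mitochondrial calcium uniporter, had 155 ± 7.94 and 78.5 ± 16 (SD, n = 3 each).

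The order of transcript levels differed between genotypes. Levels were compared between genes per kilobase of exon (union of GENCODE M21 exons, which may exceed the transcripts these cells use). In WT, Slc3a2 came first at 3010 ± 248 scaled counts per kb. Slc37a4 (267 ± 17) and Abcg1 (252 ± 11.4) followed, with overlapping libraries, then Atp1b1 (199 ± 30), Slc1a4 (158 ± 9.52) and Slc6a9 (157 ± 24), of which Slc1a4 and Slc6a9 overlapped and Atp1b1 reached into both (165 to 221 over its libraries). In cKO, Slc3a2 was again first at 1560 ± 154. Atp1b1 came next at 461 ± 53.9, Slc6a19 at 191 ± 38.5 and Slc16a5 at 163 ± 1.05, the last 2 with overlapping libraries. Slc6a19 stood at place 11 in WT and place 3 in cKO, Slc16a5 at 10 and 4, and Slc6a9 at 6 and 10. The summed scaled counts of the 25 genes other than Slc3a2 were 6060, 6339 and 6512 in WT and 5328, 4938 and 5602 in cKO.

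The authors' own values were also set beside these. In the authors' deposited table, 13 of the 16 tested genes that were lower had a q-value under 0.05, and 1 of the 6 that were higher, Slc6a19; the difference between these shares was not tested. Over the table, 72.3% of genes lower in cKO and 52.5% of those higher passed that limit (67.6% of all). The median deposited log2 value was -1.46 for the 16 genes, against -2.03 here, and 0.73 for the 6 genes, against 1.57 here. The deposited value was the smaller in size for 21 of the 22 genes, the exception being Kcnj1 (-2.28 against -2.12). The directions were the same in both sources for each of the 22 genes.

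**Figure D4:**
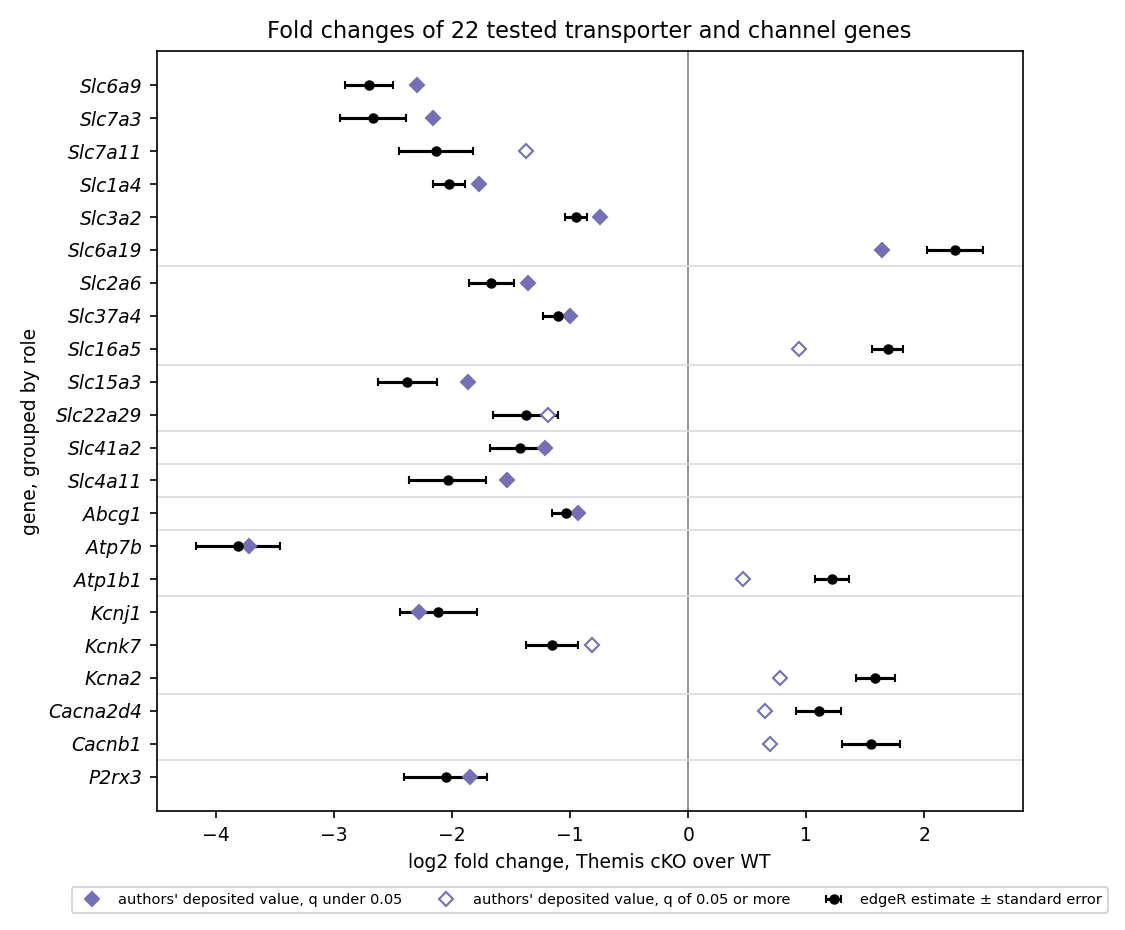
Log2 cKO/WT fold change for the 22 tested genes, grouped by role: black circles give the edgeR estimate at equal depth with its standard error, and diamonds the authors' deposited value, filled where its q-value is under 0.05. The deposited values lie closer to 0 for 21 of the 22 genes and are open for 5 of the 6 higher genes; Slc3a2, Slc37a4, Abcg1 and Kcnk7 turned sign under the table-centred scalings.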

How the data were processed

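Per the labels' protocols, RNA was isolated on columns (RNeasy) and library preparation followed the DNBSEQ-G400 protocol. The submitters' processing notes name RSEM 1.2.12, Bowtie2 2.2.5, DESeq2 1.4.5 and HISAT2 2.0.4, in no stated role or order, and the build GRCm38.p6. The authors deposited 1 table of 854 genes with an estimated count per library (66.1% of values are whole), and, per the file headers, the authors' log2 fold change, p-value and q-value; the selection of its genes is not stated in these sources. Libraries were grouped by the genotype in the sample titles, 3 libraries each.

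Counts were rounded and fitted with edgeR 4.0.16 (R 4.3.3; quasi-likelihood F-test on genotype alone). Genes passing edgeR's filter with a smallest count of 10 were tested, with Benjamini-Hochberg adjustment over all of them. Scaling used median-of-ratios factors within each genotype (0.943 to 1.04), with both genotypes at equal depth. Factors computed across genotypes would centre a table that lists only large differences on itself. Standard errors were derived from the fold change and F. On simulated data with known changes in the cKO against WT comparison (781 genes tested), the test called 88.9% of 90 genes changed 2-fold, 100% of 92 changed 4-fold and 8 of 599 unchanged ones. The simulation left most genes unchanged, balanced raised and lowered genes and set equal depth. The deposited table lists only genes with large differences, mostly lower, and its depths are not known here. These rates therefore need not hold for it. Replicates differed by more than sampling noise (chi-square per degree of freedom 6.10 to 18.9), so none was treated as a duplicate.

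Genes with a mean of at least 100 scaled counts in one genotype are given per library, 14 in all; Slc7a11 and Atp7b, below that mean, were added after their values were seen. Lists are described by the up to 4 members with the smallest p. The gene rule, lists, motifs and tests were chosen with earlier results of these data known. Genes at 0 in a genotype get a bound from 3 counts per group; intervals and bounds cover counting error only. Positions and promoters are RefSeq's on GRCm38.p6, matched by gene ID for all 26 genes (promoter windows for 19). Transcripts were compared with blastn 2.17.0 (at least 85% identity over 200 bases). An alternative test used DESeq2 1.42.0; other steps ran in Python 3.11.15 (matplotlib 3.10.9, scipy 1.17.1, numpy 2.4.6, pandas 2.3.3). Alternatives covered scaling, the test, the filter, the adjustment, leaving out each library, and a replicate block. The B cell marker list is given by 2 of its genes; its result as a whole is not reported here.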

Additional observations from a re-analysis of the deposited data

How the results depend on the processing

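Scaling changed more calls than the other alternatives. With TMM or DESeq2 size factors computed over the table, 6 of the genes were lower and called, against 16 at equal depth, and 0 of 3 channels and carriers outside the rule were lower and called, against 3 (edgeR; 1 at an unadjusted p under 0.05 with either scaling, and 3 called with DESeq2 at equal depth). Log2 fold changes turned sign for Slc3a2 (0.36 with TMM and 0.35 with DESeq2 size factors), Abcg1 (0.28 and 0.27), Slc37a4 (0.20 and 0.19), Kcnk7 (0.16 and 0.14) and Mcub (0.33 and 0.32). Both scalings take the bulk of the listed genes as unchanged, although none listed has a small fold. Over all tested genes they gave 224 higher genes each, with 214 (TMM) and 211 (size factors) lower, against 192 and 602.

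Under no scaling, DESeq2, no low-count filter and adjustment over 16996 genes (the number implied by the deposited q-values), and with any one library left out, the 22 genes kept their direction and their call (highest adjusted p 0.0174). Without the filter or with DESeq2, all 26 genes were tested, 19 lower and 7 higher. Of the 854 genes of the table, both settings called 650 lower and 204 higher. Adjustment over 16996 genes called 559 lower and 162 higher of the 794 tested. With the replicate number as a block, 16 were lower and 6 higher as before. Same-numbered libraries did not deviate together (correlations of -0.155 to -0.0545 across genes). With 3 libraries per genotype, these values cannot show whether libraries were paired, and the labels do not state a pairing. Depth over the whole transcriptome was not analysed here. Genes under about 10 counts per library limit what could be tested: 4 of the 26.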

Other observations

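Other promoter motifs were searched in the same 19 transporter and channel genes, in windows from 250 bases before to 50 after the start site and on both strands. The interferon-stimulated response element was found in 2 of the 19 (Kcnab1 and Slco1a6) and in 3.44% of all 32851 windows. The AP-1 site TGANTCA was found in 1 of the 19, Slc6a19os, and in 7.81% of windows. The NFAT core GGAAAA was found in 3 of the 19 and 23.4% of windows. The hypoxia response element forms ACGTG and GCGTG were found in 5 and 9 of the 19, and in 19.6% and 32.4% of windows. Genes with several start sites have several windows, so shares over genes and over windows are not on the same footing.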
